A study of Mus musculus with 12 samples.

Results

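Protocadherins are cell surface proteins of the cadherin superfamily, and 64 of the 28686 gene symbols in the deposited count table were taken as members here. They were chosen by symbol alone: every Pcdh gene with a plain number except Pcdh10 and Pcdh15, and every Pcdha, Pcdhb and Pcdhg symbol in the table. No symbol Pcdha10, Pcdhga10 or Pcdhgc4 was among them, so the cluster sums below cover only the symbols found. Of the 64 genes, 13 belonged to the alpha cluster, 22 to the beta cluster, 20 to the gamma cluster and 9 were non-clustered. The counts came from RNA-seq of cochlear tissue, described by the authors as sensory epithelium, taken at postnatal day (P)6 from 6 mutant and 6 control mice. Mutants were Sox2 CreER/+ Jag1 fl/fl, in which a tamoxifen-inducible Cre placed at the Sox2 locus, active in all supporting cell subtypes, deletes the Notch ligand gene Jag1. Controls were Sox2+/+ littermates, which carry no Cre and therefore keep both normal Sox2 alleles, so the comparison joins the loss of Jag1 with the Cre allele itself. From the cross in the study's methods, controls carry 1 or 2 floxed Jag1 alleles that were not deleted. All pups, controls included, received tamoxifen at P0 and P1. The labels give the strain as C57BL/6;129SV, whereas the study's methods name C57bl6/J for the Sox2 line and FVB/n for the floxed Jag1 line. The labels do not say which mice were littermates of each other.

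The clustered protocadherins are best known from neurons, where each cell expresses its own combination of them and the extracellular cadherin repeats bind the same combination on another cell. In the alpha and gamma clusters each gene contributes a large variable first exon with its own promoter, which is spliced to constant exons shared by the whole cluster and coding for the common cytoplasmic end. The beta genes are single-exon genes without a shared cytoplasmic part. Promoter choice among the variable exons depends on DNA methylation and on looping by CTCF and cohesin, while the C-type genes at the ends of the alpha and gamma clusters are chosen in a more regular way. Non-clustered protocadherins are grouped as delta-1 (here Pcdh1, Pcdh7 and Pcdh9) and delta-2 (here Pcdh8, Pcdh17, Pcdh18 and Pcdh19), and act in adhesion, cell sorting and axon growth in many tissues. In GENCODE M21 on GRCm38, the alpha genes lay at chr18:36930184-37187661, the beta genes at chr18:37264938-37524479 and the gamma genes at chr18:37661793-37841873, all on the plus strand. Pcdh1 and Pcdh12 lay further along chromosome 18 on the minus strand, Pcdh8, Pcdh17, Pcdh20 and Pcdh9 on chromosome 14, Pcdh18 on chromosome 3, Pcdh7 on chromosome 5 and Pcdh19 on chromosome X.

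Library totals ranged from 28498549 to 36134983 counts. Jag1 itself was measured at 83.0 to 118 CPM (read counts scaled to library size with TMM factors) in controls and 24.2 to 42.9 CPM in mutants, a log2 fold change of -1.48 ± 0.13 (SE, n = 6 per group; edgeR quasi-likelihood test, adjusted p = 0.00026), so the libraries matched their labels. Lists of marker genes showed that the tissue held more than epithelium. Summed neuron markers (17 genes) lay at 572 to 791 CPM in controls and 656 to 2089 CPM in mutants, with 13 of 17 higher at an unadjusted p under 0.05 (lowest adjusted p = 0.095). Summed Schwann cell markers (13 genes) lay at 644 to 1674 CPM in controls and 1446 to 6571 CPM in mutants, with 11 of 13 higher at that threshold (lowest adjusted p = 0.061). At the same threshold 1 of 12 hair cell markers was higher, while 4 of 12 supporting cell, 5 of 10 macrophage, 2 of 13 otic mesenchyme and 1 of 10 endothelial markers were lower, and 0 of 8 markers of dividing cells differed. Over all tested genes, 6.52% were higher and 4.04% lower at that threshold. A count of 1 in lists this short cannot be told from those shares. No marker on these lists was at 0 in any library. Mutant 4 had the highest neuron sum (2089 CPM) and mutant 1 the highest Schwann sum (6571 CPM). In such bulk tissue, fewer cells of a type and less RNA per cell cannot be told apart.

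Which protocadherins does the P6 cochlea express? In the 6 controls the 64 genes together took 666 to 786 CPM. The beta cluster held 28.4% of that sum, the gamma cluster 25.5% and the alpha cluster 1.70%, and the remainder came from the non-clustered genes. Levels of different genes were compared per kilobase of exonic sequence that no other counted gene shares, since reads in the constant exons cannot be assigned to 1 member. On that scale the control mean was 39.9 ± 4.5 CPM per kb (SD, n = 6) for Pcdhgc3, the C-type gamma gene, the highest of the 64 genes. Only 33.1% of its exonic bases were unshared and the gene BC037039 overlaps it, so this value is uncertain. Next came Pcdh18 (8.58 ± 1.06 CPM per kb), Pcdh1 (8.52 ± 0.45) and Pcdh7 (7.42 ± 0.79), of which Pcdh18 and Pcdh1 did not differ beyond their spread.

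**Figure D1:**
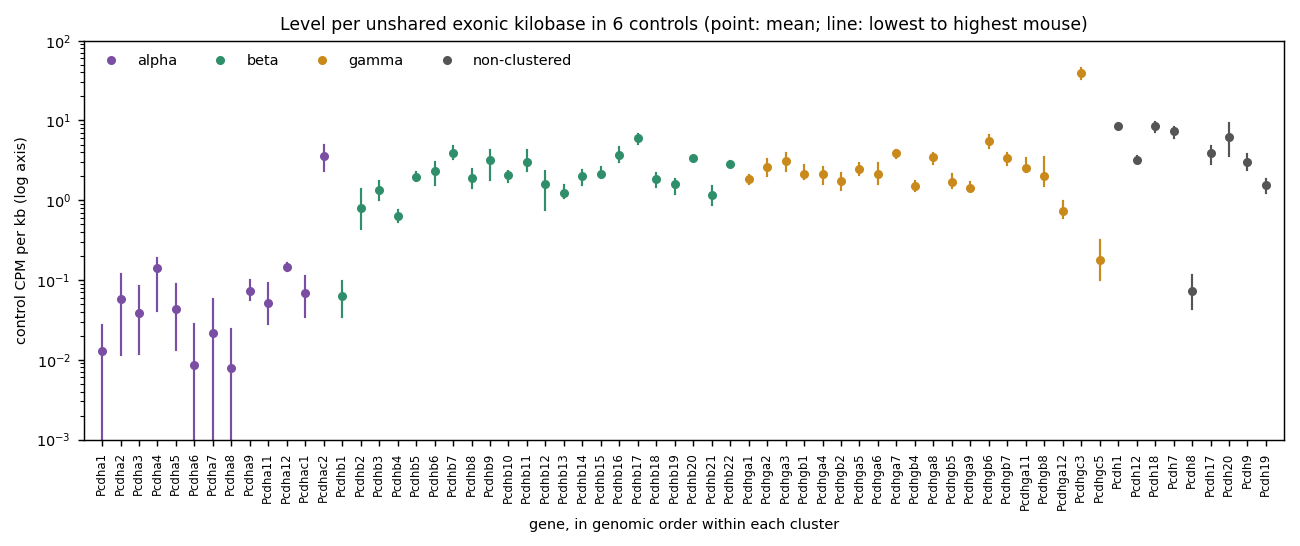
Control level of each of the 64 protocadherins in CPM per kilobase of unshared exonic sequence (log axis), in genomic order within each cluster. Points are means of 6 controls and lines run from the lowest to the highest mouse; lines cut at the bottom edge belong to genes with 0 reads in at least 1 control. Every alpha gene except Pcdhac2 has a mean of at most 0.15 CPM per kb, while the beta genes have a median of 1.97.

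Within the gene clusters the levels were uneven. The 22 beta genes had a median of 1.97 CPM per kb, from 0.063 for Pcdhb1 to 6.08 for Pcdhb17. Pcdhb1 is the first beta gene of the array, and it was counted with 2 to 8 reads per library. The 11 gamma A genes had a median of 2.43 CPM per kb and the 7 gamma B genes 1.99, with Pcdhga7 (3.89 ± 0.35) and Pcdhgb6 (5.51) the members of those groups with the highest CPM. The C-type gene Pcdhgc5, at the far end of the same cluster, was measured at 0.18 ± 0.08 CPM per kb. Pcdhgc3 alone made up 37.8 to 40.4% of the summed gamma CPM in controls and 34.5 to 40.8% in mutants. The unevenness was greater still in the alpha cluster: the 11 alternate genes lay between 0.0079 and 0.15 CPM per kb, and the C-type gene Pcdhac1 at 0.068, whereas Pcdhac2 reached 3.54 ± 0.99. Pcdhac2 took 82.7 to 89.1% of the summed alpha CPM in controls and 63.7 to 85.5% in mutants. Most of the alpha cluster was therefore measured on few reads, with 36 to 282 reads per library over the 11 alternate genes together.

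Of the non-clustered genes, Pcdh20 had a control mean of 6.28 ± 2.26 CPM per kb, the widest SD among the 9 on this scale. Pcdh17, a delta-2 member that in neurons recruits the WAVE complex, followed at 3.90 ± 0.71, Pcdh12, known from endothelium, at 3.19 ± 0.27 and Pcdh9 at 2.98 ± 0.54, the latter pair within their spread of each other. Pcdh19, whose human counterpart underlies an X-linked epilepsy, lay at 1.57 ± 0.23 CPM per kb, and Pcdh8, an activity-regulated delta-2 member, at 0.072 ± 0.029, on 3 to 16 reads per library. For all 9 non-clustered genes at least 78.9% of the exonic bases were unshared.

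Before the genotypes were compared, 2 mutant libraries stood apart in these genes. Mutant 1 was the lowest of the 12 libraries for 38 of the 60 tested protocadherins (63.3%), whereas it was lowest for 20.2% of all 18459 tested genes. This held for 16 of 20 gamma, 14 of 22 beta and 5 of 9 non-clustered genes, and its level relative to the median of the other 11 mice was 0.75 at the median over gamma genes and 0.73 over beta genes. Mutant 4 was the highest library for 20 of the 60 (33.3%, against 10.5% of all tested genes), among them 9 of 9 tested alpha genes. These mice also had the highest Schwann and neuron marker sums, and the part of these cells in the protocadherin values was not tested. For many named values that moved when either mouse was left out, the value without it is given beside it.

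**Figure D2:**
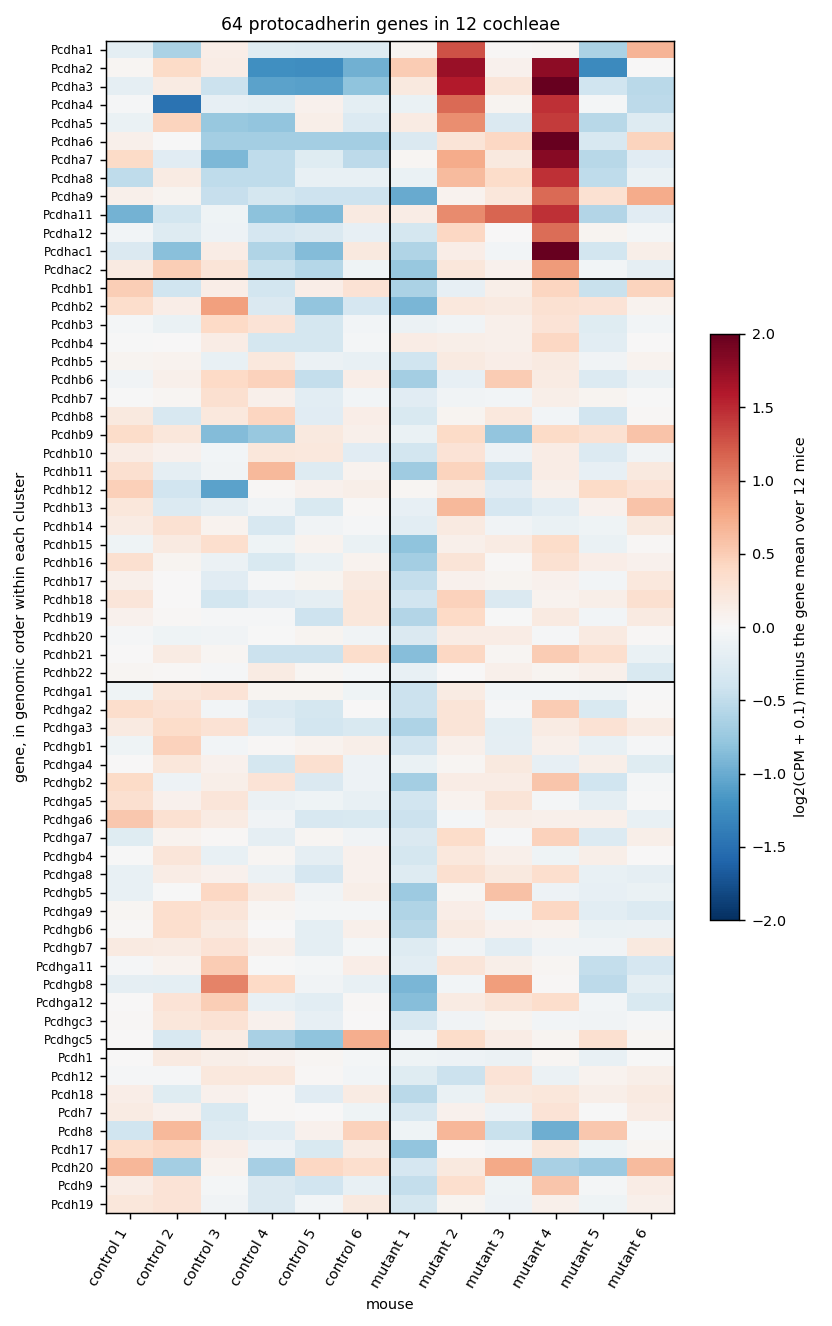
Heat map of the 64 protocadherins (rows, in genomic order within alpha, beta, gamma and non-clustered genes) in 6 control and 6 mutant mice (columns). Color is log2(CPM + 0.1) minus the mean of that gene over the 12 mice, limited to 2 in either direction. Red in the alpha rows is concentrated in mutant 4 and mutant 2, and the column of mutant 1 is blue in most beta and gamma rows.

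Does deletion of Jag1 change protocadherin expression at P6? No single protocadherin passed the test. Of the 60 members whose counts averaged 5 or more per library, 0 had an edgeR adjusted p under 0.05, where 35 of 18459 genes (0.19%) did (0.108% higher and 0.0813% lower in mutants), and 0 were called by DESeq2 (3.37% of all genes called) or limma-voom (0.103%). At an unadjusted p under 0.05 there were 6 members of 60, against a background of 10.6% of all tested genes, so their number was near that of genes in general. By DESeq2 there were 5 (background 10.8%) and by limma-voom 3 (background 10%). In edgeR 5 of the 6 were higher in mutants (background 6.52%), all in the alpha cluster, and 1 was lower, Pcdh1 (background 4.04%). Of these 5, Pcdha2 and Pcdha3 averaged fewer than 5 reads in controls and passed the count filter through the mutants. The 5 therefore cannot be read against that background. When counts had to average 20 or more, 0 of 50 members were higher at that threshold and 1 was lower. The number of members with an unadjusted p under 0.05 was 3 without control 4 (background 8.62%) and 3 without mutant 4 (9.48%). The lowest adjusted p of any member was 0.196, for Pcdha11. Control and mutant ranges overlapped for all 60 members, where the groups did not overlap for 0.997% of all tested genes (0.618% higher and 0.379% lower in mutants).

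**Figure D3:**
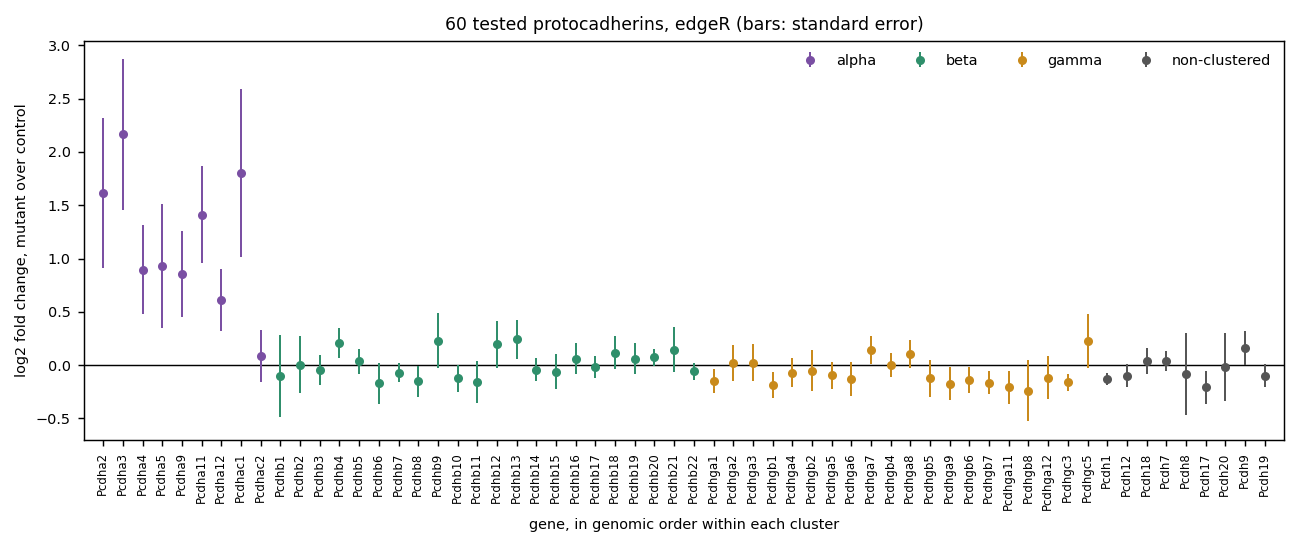
Log2 fold change of mutants over controls for the 60 tested protocadherins, in genomic order within each cluster, with the standard error from edgeR as bars (6 mice per group). The alpha genes other than Pcdhac2 lie between 0.61 and 2.17 with wide bars, while every beta, gamma and non-clustered gene lies between -0.24 and 0.24; none passed the adjusted threshold.

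The alternate alpha genes, which were measured on few reads, differed widely between mice. Within-group SDs of the tested ones ran from 0.37 (Pcdha12) to 0.97 (Pcdha2) on the log2 scale, and that of the C-type gene Pcdhac1 was 0.99. Summed over the 11 alternate genes, the control mice lay at 1.12, 1.56 and 1.89 CPM (lowest, median and highest) and the mutants at 1.56, 2.47 and 8.24 CPM. Mutant 4 (8.24 CPM) and mutant 2 (5.31 CPM) were far above the rest, and 5 of 6 mutants lay above the highest control, while mutant 5 lay among the controls. The ratio of the group means was 2.38, and 1.79 without mutant 4. In the same mice the neuron marker sum was 2089 CPM in mutant 4, 1266 in mutant 1, 1211 in mutant 2, 912 in mutant 6, 809 in mutant 3 and 656 in mutant 5. Mutant 1, second by neuron markers, had 2.02 CPM of alternate alpha reads, above the highest control (1.89 CPM). The part of neuronal RNA in the alpha difference was not tested.

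**Figure D4:**
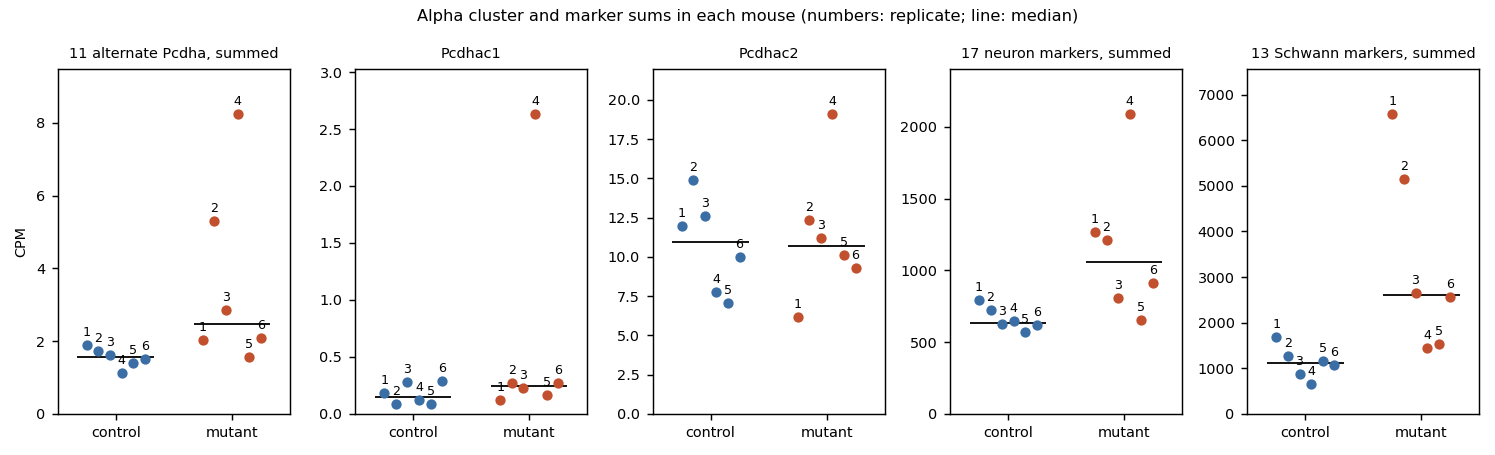
Summed CPM of the 11 alternate Pcdha genes, CPM of Pcdhac1 and Pcdhac2, and summed CPM of 17 neuron and 13 Schwann markers in each mouse; numbers are replicates and lines are medians. Mutant 4 is the highest mouse in the first 4 panels and the lowest mutant for the Schwann markers, where mutant 1 is highest (6571 CPM).

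Pcdha11 was the alpha gene with the lowest p. Its controls lay at 0.11, 0.17 and 0.35 CPM (lowest, median and highest) and its mutants at 0.16, 0.50 and 0.99 CPM. Mutants 2, 3 and 4 were above all controls and the other 3 mutants were within the control range. The log2 fold change was 1.41 ± 0.46 (SE; edgeR, p = 0.0078, adjusted p = 0.196), and an exact two-sided permutation test on log2(CPM + 0.1) gave an unadjusted p of 0.039. The same permutation test gave unadjusted p of 0.043 for Pcdha3, 0.14 for Pcdha2, 0.18 for Pcdha4 and 0.21 for Pcdhac1. The symbol Pcdha11 covers 2 gene IDs in GENCODE M21, and Gm10544 and Gm10545 overlap it, so its 3 to 34 reads per library are uncertain in their origin.

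Pcdha3 had the largest fitted difference among the tested members. In the fit without a filter on low counts, Pcdha6 had a larger log2 fold change (2.72) than Pcdha3 (2.15). Pcdha6 was measured on 0 to 20 reads per library. Controls of Pcdha3 lay at 0.029 to 0.21 CPM and its mutants at 0.089 to 1.26 CPM. Mutant 4 (1.26) and mutant 2 (0.73) were well above the rest for Pcdha3. Its log2 fold change of 2.17 ± 0.71 (edgeR, adjusted p = 0.205) was 1.49 without mutant 4. Pcdha2 (1.61 ± 0.70, adjusted p = 0.424; 1.23 without mutant 4) and Pcdha4 (0.90 ± 0.42, adjusted p = 0.466; 0.56 without mutant 4) had the same mice on top. For Pcdha2 the mutants ran from 0.027 to 0.96 CPM, which spans the whole control range of 0.029 to 0.30 CPM.

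For the remaining alternate genes, Pcdha5, Pcdha9 and Pcdha12 had log2 fold changes of 0.93, 0.86 and 0.61 and did not reach an unadjusted p of 0.05. Pcdha1, Pcdha6, Pcdha7 and Pcdha8 averaged fewer than 5 reads per library and were not tested. Their highest counts were 20 reads for Pcdha6 and 19 for Pcdha7, both in mutant 4. Controls had 0 to 4 reads of each of these 4 genes. The mean CPM of the mutants was above that of the controls for 13 of 13 alpha genes and their median for 12 of 13. Over all tested genes, 50.9% had a log2 fold change above 0. The 13 genes share a cluster and are not independent. A filter on low counts keeps genes with few reads more readily where 1 group is high. Pcdha2, Pcdha3 and Pcdha5 averaged fewer than 5 reads in controls and passed it through the mutants. Mutant 4 was the highest mouse for 10 of the 11 alternate genes.

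The C-type alpha genes differed from each other. Pcdhac1 was detected with 90 reads (2.63 CPM) in mutant 4 and with 3 to 10 reads in each of the other 11 libraries. Its controls lay at 0.087, 0.15 and 0.29 CPM and its mutants at 0.12, 0.25 and 2.63 CPM, so the groups coincided apart from mutant 4. The log2 fold change of 1.81 ± 0.79 (edgeR, adjusted p = 0.426) became 0.28 without mutant 4, and DESeq2 gave no p for it. Pcdhac2, which supplies most alpha reads, lay at 7.05, 10.97 and 14.9 CPM in controls and 6.19, 10.7 and 19.1 CPM in mutants. Its log2 fold change was 0.087 ± 0.245 (adjusted p = 0.959) and -0.12 without mutant 4. The whole alpha cluster summed to 8.53 to 16.7 CPM in controls and 8.34 to 30.0 CPM in mutants. The log2 ratio of its means was 0.33, and 0.043 without mutant 4. The mean of that sum was 12.4 CPM in controls and 15.7 CPM in mutants. Pcdhac2 alone had means of 10.7 and 11.4 CPM, and the 11 alternate genes together 1.54 and 3.68 CPM. Most of the difference in the sum therefore lay outside Pcdhac2.

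The beta cluster summed to nearly the same level in both genotypes. Controls lay at 191, 208 and 226 CPM (lowest, median and highest) and mutants at 156, 214 and 235 CPM, a log2 ratio of means of 0.0025, and 0.073 without mutant 1. Mutant 1 had the lowest sum (156 CPM) and mutant 2 the highest (235 CPM). Of the 22 genes, 11 had a log2 fold change above 0 and 11 below, with a median of -0.0062 (all tested genes 0.0030), and 0 reached an unadjusted p under 0.05 in edgeR, DESeq2 or limma-voom. Single values ran from -0.17 for Pcdhb6 to 0.24 for Pcdhb13. Pcdhb17, the most abundant beta gene, lay at 24.0 to 31.6 CPM in controls and 20.1 to 32.4 CPM in mutants, with a log2 fold change of -0.017 ± 0.102 that turned to 0.062 without mutant 1. The beta genes are similar in sequence, and how reads matching several of them were treated is not given in the sources used here.

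The gamma genes were slightly lower in mutants by value without passing the test. Summed levels were 160, 182 and 211 CPM in controls and 134, 181 and 190 CPM in mutants (lowest, median and highest), a log2 ratio of means of -0.10, and -0.039 without mutant 1. Of the 20 genes, 14 had a log2 fold change below 0, with a median of -0.12 against 0.0030 for all tested genes, and 0 reached an unadjusted p under 0.05 in edgeR, DESeq2 or limma-voom. Summed without the C-type genes, the gamma log2 ratio was -0.069, and it became 0.0072 without mutant 1.

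Pcdhgc3, reported to bind the Wnt pathway scaffold Axin1, carried much of the gamma difference. Its controls lay at 60.9, 71.3 and 83.1 CPM and its mutants at 54.9, 65.6 and 70.9 CPM, so all 6 mutants lay below the control median although the ranges overlapped. The log2 fold change was -0.16 ± 0.08 (edgeR, adjusted p = 0.508), and -0.12 without mutant 1. Pcdhgc5 went the other way by value, with 0.55 to 1.77 CPM in controls and 0.98 to 1.37 CPM in mutants (log2 fold change 0.23 ± 0.25, adjusted p = 0.865; 0.48 without control 6 and 0.10 without control 5). The spread of its controls was wider than that of its mutants. Pcdhga7 (0.15 ± 0.13) and Pcdhgb6 (-0.14 ± 0.12), the most abundant gamma A and gamma B genes, had differences of about their standard errors. Without mutant 4 the value of Pcdhga7 was 0.057, and without mutant 1 that of Pcdhgb6 was -0.059.

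Among the non-clustered genes, Pcdh1 was the only one with an unadjusted p under 0.05. This delta-1 gene, whose product is an adhesion molecule of epithelia and neurons, lay at 69.7, 74.7 and 80.9 CPM in controls and 64.5, 67.2 and 73.6 CPM in mutants. All 6 mutants were below the control median, and the ranges overlapped. The log2 fold change was -0.13 ± 0.05 (SE; edgeR, p = 0.029, adjusted p = 0.377), with an unadjusted p of 0.015 in an exact two-sided permutation test on log2(CPM + 0.1). The unadjusted edgeR p was 0.072 with the replicate number as a block. It lay between 0.055 and 0.074 when control 2, control 3, mutant 3 or mutant 5 was left out, so Pcdh1 was not under 0.05 in every fit. The log2 fold change of Pcdh1 lay between -0.15 and -0.11 when any 1 mouse was left out. Pcdh1 varied little between mice, as its within-group SD was 0.074 on the log2 scale, against a median of 0.20 for all tested genes and 0.30 for the 60 members. The summed supporting cell markers lay at 6341 to 8323 CPM in controls and 5409 to 7113 CPM in mutants, and their part in the Pcdh1 difference was not tested.

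The other delta-1 genes had no such difference. Pcdh7 lay at 50.8 to 70.0 CPM in controls and 50.3 to 75.9 CPM in mutants. Its log2 fold change was 0.039 ± 0.097, with 0.098 without mutant 1 and -0.017 without mutant 4. Pcdh9 lay at 16.1 to 25.4 CPM and 15.1 to 30.9 CPM, with mutant 4 highest and mutant 1 lowest (0.16 ± 0.16, adjusted p = 0.831; 0.056 without mutant 4 and 0.26 without mutant 1). Neither gene separated the genotypes.

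In the delta-2 group Pcdh17 was measured at 37.5 to 61.9 CPM in controls and 26.7 to 53.9 CPM in mutants, with a log2 fold change of -0.21 ± 0.15 (adjusted p = 0.746) that was -0.10 without mutant 1. Pcdh18 (0.036 ± 0.123), Pcdh19 (-0.099 ± 0.107; -0.043 without mutant 1) and Pcdh8 (-0.081 ± 0.383) had differences smaller than their standard errors. Leaving out single mice turned the sign for Pcdh18, which was 0.13 without mutant 1 and -0.0057 without mutant 4, and for Pcdh8, which was 0.10 without mutant 4. Pcdh12 lay at 17.9 to 21.4 CPM in controls and 13.8 to 22.3 CPM in mutants (-0.099 ± 0.107; -0.061 without mutant 1 and -0.032 without mutant 2). The summed endothelial markers lay at 726 to 793 CPM and 661 to 761 CPM in the same groups, and their part in the Pcdh12 values was not tested.

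Several members differed more between mice of the same genotype than between the genotypes, a pattern picked out after the values were seen. Pcdhb9 lay at 5.54 to 5.98 CPM in control 3, control 4 and mutant 3 and at 9.29 to 15.1 CPM in the other 9 mice, with no value in between. In those same 3 mice Pcdhb6 lay at 10.7 to 11.6 CPM against 5.03 to 9.09 elsewhere, and Pcdhgb8 at 5.70 to 8.63 CPM against 2.24 to 4.38. Pcdhb9 was thus low and the other genes high in the same mice, which included both genotypes. Pcdhb8, Pcdhgb5 and Pcdh12 were also highest in them, by narrower margins. Of the 60 tested members 5 (8.33%) had these mice as their 3 highest, compared with 228 of 18459 genes (1.24%) and 17 of 484 tested genes on chromosome 18 (3.51%). As their 3 lowest they occurred in 1 member (1.67%), 173 genes (0.937%) and 8 genes of chromosome 18 (1.65%). The 3 mice were picked from values of these members, so the share among members was raised by that choice. The comparison with all genes therefore cannot show an enrichment. The members involved lie near each other on chromosome 18 and are not independent.

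Pcdh20, on chromosome 14, was split in another way. It lay at 19.2 to 25.3 CPM in control 2, control 4, mutant 1, mutant 4 and mutant 5 and at 33.5 to 54.0 CPM in the other 7 mice. Its within-group SD of 0.61 on the log2 scale exceeded that of 93.7% of all tested genes, and its log2 fold change between the genotypes was -0.015 ± 0.321. Of 18459 genes 9 had these 5 mice as their lowest. Pcdh20 is among them because the 5 mice were picked from its values.

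**Figure D5:**
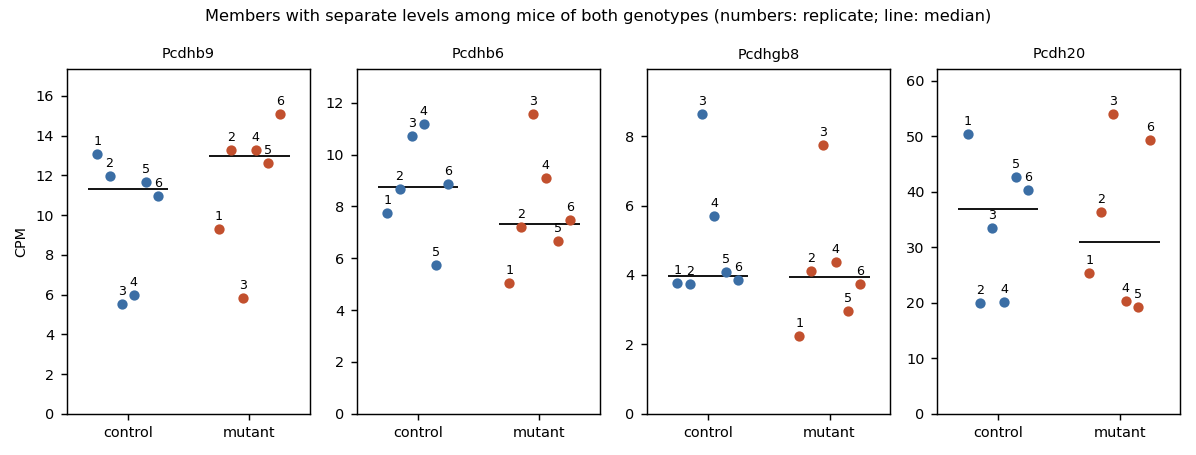
CPM of Pcdhb9, Pcdhb6, Pcdhgb8 and Pcdh20 in each mouse, with replicate numbers and group medians as lines. Control 3, control 4 and mutant 3 are lowest for Pcdhb9 and highest for Pcdhb6 and Pcdhgb8, while Pcdh20 splits into 5 mice at 19.2 to 25.3 CPM and 7 mice at 33.5 to 54.0 CPM.

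Among the listed genes that act with protocadherins, 0 passed the adjusted threshold. Of 11 measured genes for promoter choice and silencing of the clusters, 0 reached an unadjusted p under 0.05 in edgeR (lowest adjusted p = 0.875), where 10.6% of all tested genes did. Rad21, a cohesin subunit, had a log2 fold change of -0.0037 ± 0.0611 and Stag2, another, of 0.089 ± 0.114. Ctcf, the looping factor of the clusters, lay at 92.5 to 108 CPM in controls and 90.8 to 105 CPM in mutants.

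Of 19 cytoplasmic and membrane partners, 1 was higher and 1 lower at an unadjusted p under 0.05. Over all tested genes, 6.52% were higher and 4.04% lower at that threshold, so this number was near that of genes in general. Fyn, a Src family kinase, lay at 56.0 to 65.5 CPM in controls and 60.1 to 103 CPM in mutants (log2 fold change 0.32 ± 0.11, edgeR adjusted p = 0.261). Ptk2b, which encodes the kinase PYK2 that clustered protocadherins bind and inhibit, lay at 7.56 to 9.58 CPM and 5.79 to 8.61 CPM (-0.26 ± 0.10, adjusted p = 0.353). The most abundant partners, Rac1 (-0.065 ± 0.051) and Nckap1 of the WAVE complex (-0.094 ± 0.071), had adjusted p of 0.776 and 0.760. Of 7 genes for proteolytic processing, Aph1b, a gamma-secretase subunit, was higher at an unadjusted p under 0.05 (0.57 ± 0.18, edgeR adjusted p = 0.199). Its controls lay at 16.6, 20.2 and 38.3 CPM and its mutants at 24.3, 34.9 and 38.6 CPM (lowest, median and highest). All 6 mutants lay above the control median, and the ranges overlapped. The sheddase gene Adam10 (0.040 ± 0.084) and Ncstn, also of gamma-secretase (-0.076 ± 0.087), did not reach that threshold. None of these genes passed the adjusted threshold, and 1 gene in a list of 7 cannot be told from the share of all tested genes.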

How the data were processed

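Total RNA from 6 control and 6 mutant cochlear samples (RIN 9.7 to 10) was sequenced by the authors as single-end reads of 100 nt. The deposited values are raw read counts per gene symbol; the submitters' processing notes name Trimmomatic 0.32, STAR 2.4.2a, HTSeq 0.9.1, DESeq2 1.10.1 and build GRCm38.p4. The annotation, strand setting and treatment of multiply mapped reads are not given in the sources used here, so counts of similar or overlapping members could be split. A second deposited table, with the authors' own mean, fold change and p-values, was not used.

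The 18459 genes whose counts averaged 5 or more per library were tested with edgeR 4.0.16 (TMM, robust quasi-likelihood, Benjamini-Hochberg threshold 0.05) in R 4.3.3. DESeq2 1.42.0, limma-voom (limma 3.58.1), other normalizations and filters, a replicate block and leaving out each mouse were alternatives. The scripts were tested on simulated data. Members and gene lists were chosen with earlier results of these data known. Named were Jag1, every member with an unadjusted p under 0.05, every non-clustered and C-type gene among the 64 members, and the highest-CPM gene of each cluster. Partners were named that had an unadjusted p under 0.05 or the 2 highest CPM in each list. Other names were chosen after their values were seen. Sums over genes have no test. Unshared exonic lengths and positions came from GENCODE M21, which may not be the authors' annotation.

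Replicate numbers were not taken to pair the mice: same-numbered mice deviated with correlations of -0.31 to 0.37, with 3 of 6 above 0.1. This check cannot exclude that some mice were paired, as the labels give no litters. In all 30 same-group pairs counts differed by more than sampling noise (chi-square per degree of freedom at least 14.4). The labels do not say how litters were spread over the groups, and p-values measure the spread between these mice. The smallest exact permutation p of 6 against 6 is 0.0022.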

Additional observations from a re-analysis of the deposited data

Results flagged for a closer look

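In 48 groups of 6 values (20 named members and 4 sums, each in controls and in mutants), 1 mouse was set apart from the rest of its group by Dixon's test in 2, or 4.17%, and chance sets apart about 5% of groups. Pcdhac1 in mutant 4 was measured at 2.63 CPM, while the other 5 mutants lay at 0.12 to 0.27 CPM. Pcdha4 in control 2 was measured at 0.12 CPM, while the other 5 controls lay at 0.44 to 0.55 CPM.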

How the results depend on the processing

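No alternative gave a called protocadherin. The number of genes called over the whole table was 35, and it was 619 with DESeq2, 19 with limma-voom, 57 without a filter on low counts, 131 with the replicate block, and 14 to 356 when 1 mouse was left out, the highest without mutant 5. The cause was not tested. Members with an unadjusted p under 0.05 numbered 6 of 60 (10.6% of all tested genes), and 3 of 60 with limma-voom (10%), 10 of 64 without a filter (8.39%), 1 of 50 when counts had to average 20 or more (10.6%), 2 of 52 with filterByExpr (10.4%), 3 of 60 with the replicate block (9.13%), and 3 to 8 when 1 mouse was left out, with 3 of 60 without control 4 (8.62%), 3 of 58 without mutant 4 (9.48%) and 8 of 60 without mutant 1 (14.2%). The log2 ratio of summed alpha CPM (0.33) was 1.25 without the C-type members and, in an alternative chosen after seeing the data, 0.84 without those members and mutant 4. Leaving out 1 mouse turned the sign of 6 small log2 fold changes: Pcdh20 (-0.19 to 0.12), Pcdh8 (-0.30 to 0.10), Pcdh18 (-0.0092 to 0.13), Pcdh7 (-0.017 to 0.098), Pcdhac2 (-0.12 to 0.21) and Pcdhb17 (-0.063 to 0.062). In the check of replicate numbers, 4 of 12 mice deviated most like the mouse of their own number. The replicate block gave log2 ratios of 0.25 for the alpha, -0.0080 for the beta and -0.11 for the gamma sum. Few reads limit the alternate alpha genes.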
